A study of Mus musculus with 14 samples.

Results

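The genes described here were 39 genes of motile cilia, the beating cilia that the ciliated cells of the airway epithelium carry. They were listed by symbol and looked up in the platform annotation of a mouse oligonucleotide array, where 38 of the 39 had a probe set, among 18193 genes named by 1 symbol. The one without, Mcidas, a regulator of multiciliated cells, enters here only with its promoter. Where a gene had several probe sets, the one with the highest mean over all arrays stood for it. RNA had been taken from pooled whole lungs of ICR mice that the labels give as female, at embryonic days 12, 14, 16 and 18 (E12, E14, E16, E18), at postnatal days 2 and 10 (P2, P10) and at postnatal day 30 (Adult), with gestation counted from plug day as 0. The authors' methods name females as the mice bred for timed pregnancies and do not say whether embryos were sexed. Each of the 7 time points had 2 arrays, 14 in all. The sources do not say how many lungs went into a pool or whether the arrays of a time point came from separate pools, so each p below measures the spread between arrays, which may be technical. Airway epithelium was not isolated, and in whole lung RNA fewer ciliated cells and less RNA per ciliated cell cannot be told apart.

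A motile cilium is built on an axoneme, a ring of microtubule doublets around a central pair. Outer and inner dynein arms on the doublets slide them past each other, while radial spokes, the central pair apparatus and the nexin-dynein regulatory complex turn sliding into a regular beat. In the airway, multiciliated cells arise from progenitors through a sequence in which Mcidas, Ccno and Myb act early, during the making of many basal bodies, and Foxj1 and the RFX factors switch on the genes of the axoneme. Their beat moves mucus towards the mouth.

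The deposited values were on a log2 scale, so that a difference of 1 is a doubling, and ran from 2.53 to 14.99 with array medians between 6.55 and 6.63. Each array lay nearest the other array of its own time point (14 of 14), with r between replicates of 0.9953 to 0.9977 over all probe sets, and the median SD between replicates was 0.107 for probe sets whose highest time-point mean (Max) was above 7. A model with a mean per time point was fitted to all 45037 probe sets with limma, and a change was called at an adjusted p under 0.05 over all of them. Of the 38 motile cilia genes, 29 had a Max above 7, against 64.1% of all genes. Just inside that limit were Dnah9 with a Max of 7.13 and Dnah11 with 7.20, and just outside it were Hydin with 6.99 and Dnah2 with 6.79. The 9 genes at or below 7 were Dnah5, Dnah2, Dnaaf1, Hydin, Spag16, Spag17, Spef2, Ccdc113 and Stk33.

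The motile cilia genes moved as a wave with a trough. Across the 7 time points 37 of the 38 differed in the moderated F test, against 73.2% of all genes, and the exception was Ift88 (adjusted p = 0.14), a subunit of the intraflagellar transport machinery that primary cilia of most cells also use. When a Max above 7 and a spread of the 7 time-point means (Range, the highest less the lowest) above 1.2 were also asked for, 26 of the 38 qualified, against 26.7% of all genes. The mean over the 38 genes was 5.81 and 5.79 on the E12 arrays, 5.81 and 5.81 at E14, 6.91 and 6.85 at E16, 7.70 and 7.72 at E18, 7.30 and 7.28 at P2, 6.57 and 6.79 at P10, and 7.80 and 7.60 in the adult. It was thus flat between E12 and E14, higher at E16 and again at E18, lower at P2 and P10, and back near the E18 level in the adult.

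**Figure D1:**
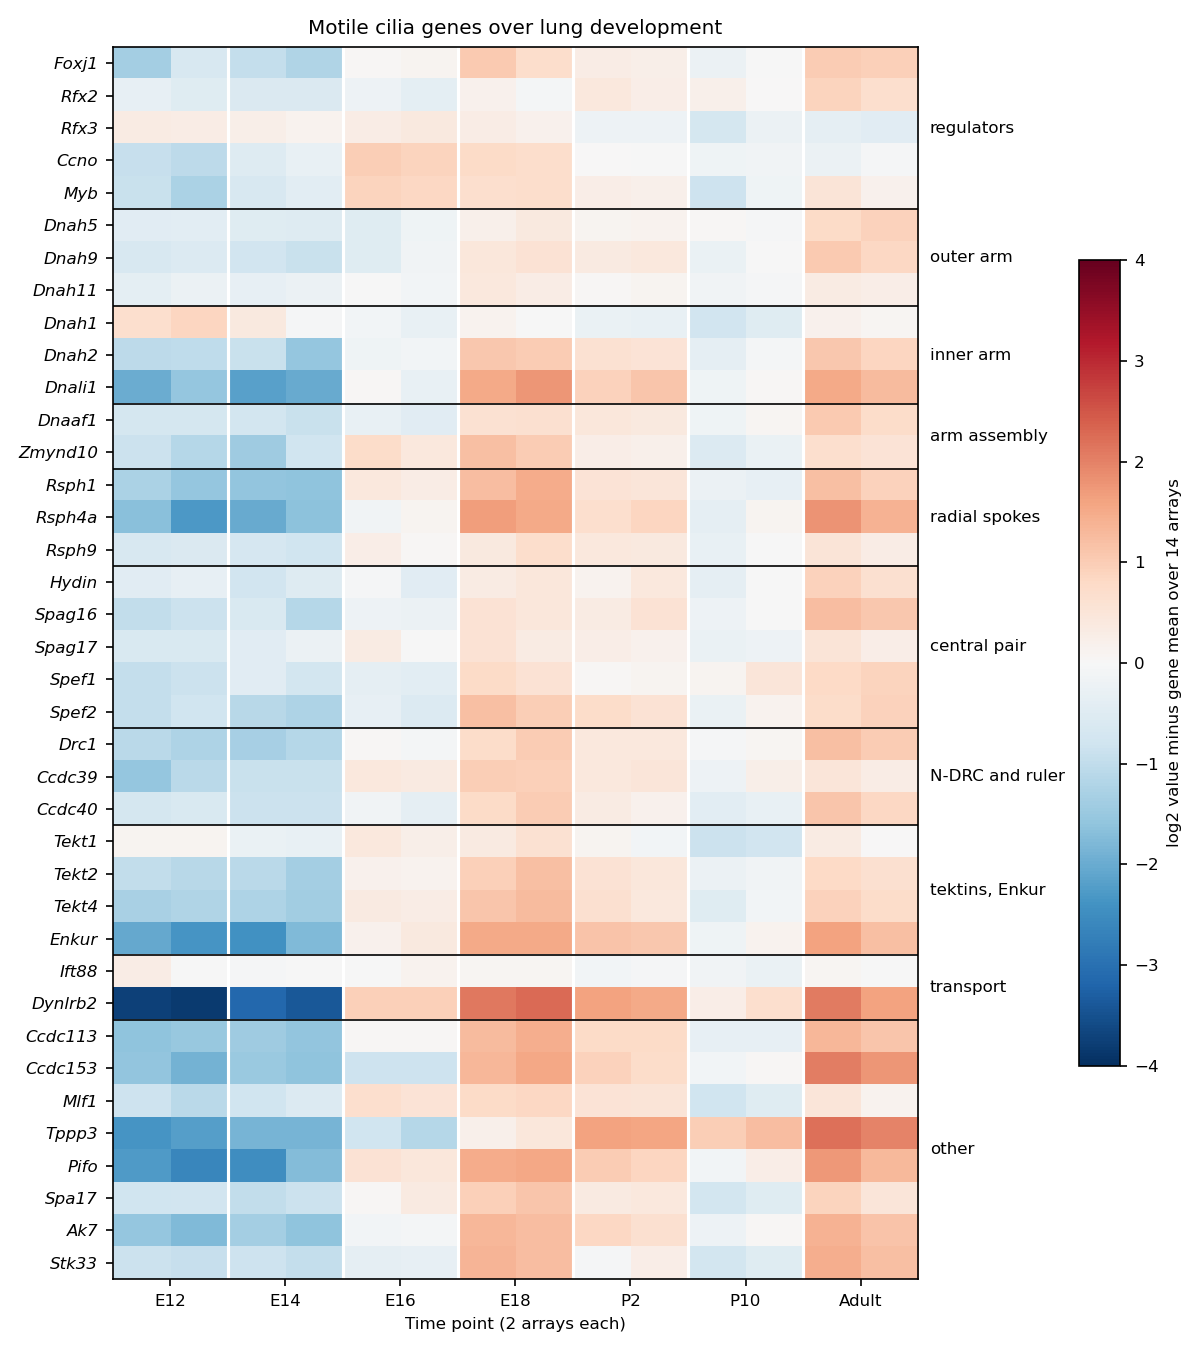
Log2 value minus the gene's mean over the 14 arrays (colour) for the 38 motile cilia genes with a probe set, down the page by role, on the 2 arrays of each time point from E12 to Adult. Most rows are blue at E12 and E14, red at E18 and in the adult and paler at P10, while Rfx3, Dnah1 and Ift88 lack that course.

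The highest time-point mean fell at E18 in 20 of the 38 genes, against 14% of all genes, and in the adult in 13, against 27.9%. The 2 times together held 33 of the 38, against 41.8%. The highest mean fell at E16 in 3 genes (Rfx3, Ccno and Myb), against 8.24%, and at E12 in Dnah1 and Ift88, against 21.1%. No motile cilia gene was highest at E14, P2 or P10, where 9.64%, 6.42% and 12.7% of all genes were highest. The E18 and adult levels of many genes lay close together, and without the second adult array 14 genes were highest at E18 and 19 in the adult.

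Promoters were set beside these profiles because many of the genes changed at the same step. RefSeq windows of 300 bases on GRCm38.p6, from 250 before to 50 after the transcript start, were matched for 33 of the 39 genes; Foxj1, Tppp3, Stk33, Rsph4a, Dnaaf1 and Rsph1 were not matched. The letters GTTGCC, the core that RFX factors are known to bind, were searched on both strands. They occurred in 18 of the 33 windows (54.5%), against 3423 of 27025 windows of all genes (12.7%), and in 30 of 69 windows of the other motile axoneme genes described further on (43.5%). Among the 24 matched genes that were called higher at E16 than at E14, 13 held them (54.2%), about the share of all 33. Of the matched genes with array values but no call at that step, Rfx2, Rfx3, Hydin and Ift88 held them and Dnah5, Dnah11, Dnah1 and Spef1 did not. The longer X-box, a pair of such cores facing each other, was searched in a single strict form with a gap of fixed length. That form occurred in 0 of the 33 windows, in 3 of the 69 (4.35%) and in 0.444% of all windows. Pairs with another gap or with other letters in the second core were not counted. The stretches of Dynlrb2 and Ccdc153 below hold such looser pairs, so the 0 does not mean that facing cores are absent. The forkhead motif TGTTTAC, of the kind that FOXJ1 binds, occurred in 3 of the 33 (9.09%, in Ak7, Mlf1 and Myb), in 2.9% of the 69 and in 3.55% of all. These matches describe letters in a window and were not tested as binding sites. Stretches of 40 bases upstream of the start are shown for 6 genes whose array values are given below, 5′ to 3′ on the strand of the gene, with GTTGCC or its complement GGCAAC in capitals and the position of the motif's first base counted from the transcript start.
Dynlrb2, chr8:116504947-116504986, plus strand, motif at position -51: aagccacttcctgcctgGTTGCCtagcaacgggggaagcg
Enkur, chr2:21205377-21205416, minus strand, motif at position -34: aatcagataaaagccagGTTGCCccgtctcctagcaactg
Ccdc153, chr9:44240508-44240547, plus strand, motif at position -152: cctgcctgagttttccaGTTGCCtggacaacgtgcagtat
Ccno, chr13:112987566-112987605, plus strand, motif at position -219: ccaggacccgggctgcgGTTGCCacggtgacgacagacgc
Rfx2, chr17:56831102-56831141, minus strand, motif at position -116: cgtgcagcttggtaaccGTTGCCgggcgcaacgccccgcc
Mlf1, chr3:67373975-67374014, plus strand, motif at position -105: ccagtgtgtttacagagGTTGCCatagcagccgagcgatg
The Mlf1 stretch also holds the forkhead letters just before the RFX motif, in lower case. Ccno, Rfx2 and Dynlrb2 carry the same letters although their profiles differ, as set out next.

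At the first step almost nothing changed. At E14 against E12, 1 motile cilia gene was called higher (3.41% of all genes) and 1 lower (0.918%). The higher one was Ccno, the cyclin O gene needed for centriole amplification, with 6.10 and 6.31 at E14 and 5.68 and 5.57 at E12, a difference of 0.58 (SE 0.10, adjusted p = 0.00535). The lower one was Dnah1, an inner arm dynein heavy chain, with 7.66 and 7.23 at E14 and 7.93 and 8.13 at E12, a difference of -0.58 (SE 0.14, adjusted p = 0.0439). Both calls were lost when either the second E12 array or the second E14 array was left out, and that of Dnah1 in all but 3 of the 14 refits that each left out 1 array.

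The wave began at E16. Against E14, 30 of the 38 genes were higher (9.95% of all genes) and 0 were lower (10.6%), with a median difference of 0.98 over the 38 and 0.01 over all genes. Of the 30, 23 stayed called whichever array was left out. Without the first E16 array, which stood apart most in heart muscle markers (given with Mlf1 further on), 24 were called higher. The second E16 array, which stayed in that refit, was also raised in the heart muscle gene Myl2. The largest differences were those of Dynlrb2, a light chain of cytoplasmic and ciliary dynein, with 4.22, Pifo with 2.62 and Enkur, a protein inside the doublet microtubules, with 2.39. The 8 genes without a call were Rfx2, Rfx3, Dnah5, Dnah11, Dnah1, Hydin, Spef1 and Ift88. The 3 dynein heavy chains among them, Dnah5, Dnah11 and Dnah1, had differences of 0.17, 0.22 and -0.38.

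At E18 against E16, 30 of the 38 genes were again higher (24.8% of all genes) and 0 lower (21.6%), with a median difference of 0.83 against 0.03 over all genes. Of the 30, 26 stayed called whichever array was left out. The largest were Ccdc153 with 2.26, Dnali1, an inner arm light intermediate chain, with 1.78, and the kinase gene Stk33 with 1.65. The 8 without a call were the regulators Rfx3, Ccno and Myb, and Dnah1, Spag17, Tekt1, Ift88 and Mlf1. For Spag17 this depended on the probe set. Its second one was higher at E18 by 1.14 (SE 0.11, adjusted p = 2.8e-06), and both were dim, with highest means of 4.71 for the one used and 5.01 for the second. The regulators had the smallest median of all role groups at this step, with -0.11 over 5 genes, against 0.98 for the 3 radial spoke genes and 0.88 for the 3 genes of the regulatory complex and ruler.

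**Figure D2:**
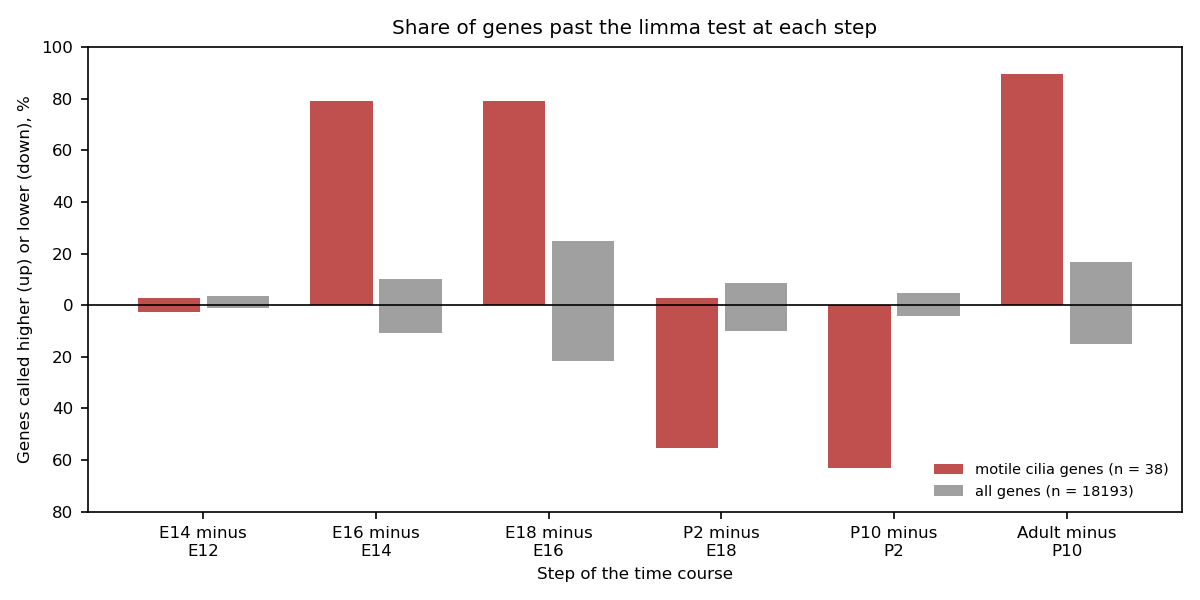
Percentage of genes called higher (bars up) or lower (bars down) at an adjusted p under 0.05 in limma at each of the 6 steps of the time course, for the 38 motile cilia genes (red, left) and all 18193 genes (grey, right). The red bars point up at E16, E18 and Adult and down at P2 and P10.

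After birth the direction turned. At P2 against E18, 21 of the 38 genes were lower (10% of all genes) and 1, Tppp3, was higher (8.58%), with a median difference of -0.48 against 0.01 over all genes. This count depended on single arrays: it was 12 without the first E18 array, 11 without the second, 11 without the first P2 array and 8 without the second. The falls that stayed called whichever array was left out were those of Ccno, Rsph1, Ccdc40, Ccdc113 and Stk33. Stk33 fell by 1.19, with 4.62 and 4.92 at P2 and 6.04 and 5.89 at E18. Foxj1 had 7.30 and 7.22 at P2 and 8.04 and 7.71 at E18, a difference of -0.61 (SE 0.19, adjusted p = 0.0432), and its call was lost in 9 of the 14 refits.

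At P10 against P2, 24 of the 38 genes were lower (4.37% of all genes) and 0 higher (4.82%), with a median difference of -0.63 against 0.01 over all genes. The count was 13 without the first P2 array, 14 without the second and 13 without the first P10 array. The 12 that stayed called in each refit were Dnali1, Rsph1, Tekt1, Tekt2, Tekt4, Enkur, Dynlrb2, Ccdc113, Ccdc153, Mlf1, Spa17 and Ak7. The largest falls of these were 1.18 for Mlf1 and 1.13 for Enkur. The P10 arrays differed from each other mostly one way: the second was above the first in 33 of the 38 genes, by a median of 0.247, whereas at E12, E14, E16, E18 and P2 the first was above the second in 17 to 25 genes.

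In the adult against P10, 34 of the 38 genes were higher (16.8% of all genes) and 0 lower (14.9%), with a median difference of 1.01 against 0.01 over all genes. Of these, 31 stayed called whichever array was left out. The 4 without a call were Rfx3, Ccno, Ccdc39 and Ift88. The first adult array was above the second in 34 of the 38 genes, by a median of 0.214. The P2, P10 and adult comparisons share arrays, so that a low value at P10 enters both the fall before it and the rise after it.

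Among the regulators the time courses parted. Foxj1, the forkhead factor that drives axoneme genes, had 5.64 and 6.36 at E12, 6.04 and 5.78 at E14, 7.04 and 7.11 at E16, 8.04 and 7.71 at E18, 7.30 and 7.22 at P2, 6.76 and 6.98 at P10, and 8.02 and 7.93 in the adult. Its E18 and adult arrays were all above its other arrays, and it was higher at E16 than at E14 by 1.17 (SE 0.19, adjusted p = 0.000937) and at E18 than at E16 by 0.80 (SE 0.19, adjusted p = 0.00367). Ccno had 5.68 and 5.57 at E12, 6.10 and 6.31 at E14, 7.58 and 7.50 at E16, 7.36 and 7.32 at E18, 6.63 and 6.59 at P2, 6.44 and 6.46 at P10, and 6.37 and 6.56 in the adult. It was highest on the E16 arrays, after a rise over E14 of 1.33 (SE 0.10, adjusted p = 1.84e-06), and its E18 arrays lay just below them, with a difference of -0.20 (SE 0.10, adjusted p = 0.126) that was not called. Unlike most of the genes it stayed low after birth, with a difference between the adult and P10 of 0.02 (SE 0.10, adjusted p = 0.938).

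Myb, a factor of early multiciliated cells that blood cell precursors also express, had 7.42 and 7.04 at E12, 7.67 and 7.90 at E14, 9.20 and 9.14 at E16, 8.97 and 9.01 at E18, 8.60 and 8.51 at P2, 7.50 and 8.15 at P10, and 8.83 and 8.49 in the adult. Its E16 arrays were the highest, and its P10 arrays lay to either side of the E14 arrays. It rose at E16 by 1.39 (SE 0.19, adjusted p = 0.000237) and the difference at E18 was -0.18 (SE 0.19, adjusted p = 0.492). Its 2 other probe sets had the same course, with r of 0.987 and 0.965 over the 7 time-point means. Markers of leukocytes were at 6.77 and 6.72 on the E16 arrays and 6.40 and 6.30 at E14 (mean of 5 genes), and 1 of the 5, Ptprc, the CD45 gene, was called higher at E16, by 1.30 (SE 0.18, adjusted p = 0.000337). Markers of blood progenitors and red cells were at 8.85 and 9.03 at E16 and 8.93 and 9.08 at E14 (mean of 7 genes), a mean in which members moved in opposite directions. At E16 against E14, 3 of the 7 were called higher, Alas2 of haem synthesis by 1.40 (SE 0.27, adjusted p = 0.0031), the progenitor marker Cd34 by 0.55 (SE 0.10, adjusted p = 0.00184) and the erythropoietin receptor gene Epor by 0.36 (SE 0.10, adjusted p = 0.0265), and 1 lower, the embryonic globin gene Hbb-y, with a difference of -3.01 (SE 0.36, adjusted p = 9.72e-05). The part of blood cells in the Myb values was not tested.

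Rfx2, an RFX factor of ciliated cells and testis, had 6.39 and 6.21 at E12, 6.14 and 6.14 at E14, 6.52 and 6.32 at E16, 6.90 and 6.63 at E18, 7.13 and 6.97 at P2, 6.92 and 6.73 at P10, and 7.59 and 7.39 in the adult. It rose late and was higher in the adult than at P10 by 0.66 (SE 0.12, adjusted p = 0.00122) and than at E18 by 0.72 (SE 0.12, adjusted p = 0.000477). Its call at E18 over E16, 0.35 (SE 0.12, adjusted p = 0.0396), was lost without the second E16 array and without the first E18 array, and the mean of its 4 probe sets gave -0.03. Of those probe sets, 1 ran against the others, with r of -0.37 to the one used. Rfx3, an RFX factor with roles in primary as well as motile cilia, had 8.54 and 8.51 at E12, 8.43 and 8.34 at E14, 8.50 and 8.60 at E16, 8.50 and 8.38 at E18, 7.99 and 8.01 at P2, 7.51 and 7.96 at P10, and 7.86 and 7.76 in the adult. It was at one level before birth and lower after it, and the difference between the adult and E12 was -0.72 (SE 0.12, adjusted p = 0.000181). Its second, dimmer probe set (r of 0.69 to the one used) also had a lower adult level than at E12, with a difference of -0.35 (SE 0.09, adjusted p = 0.00589), but no step at birth was called there, with 0.08 (SE 0.09, adjusted p = 0.63) at P2 against E18, where the one used had -0.44 (SE 0.12, adjusted p = 0.0305).

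**Figure D3:**
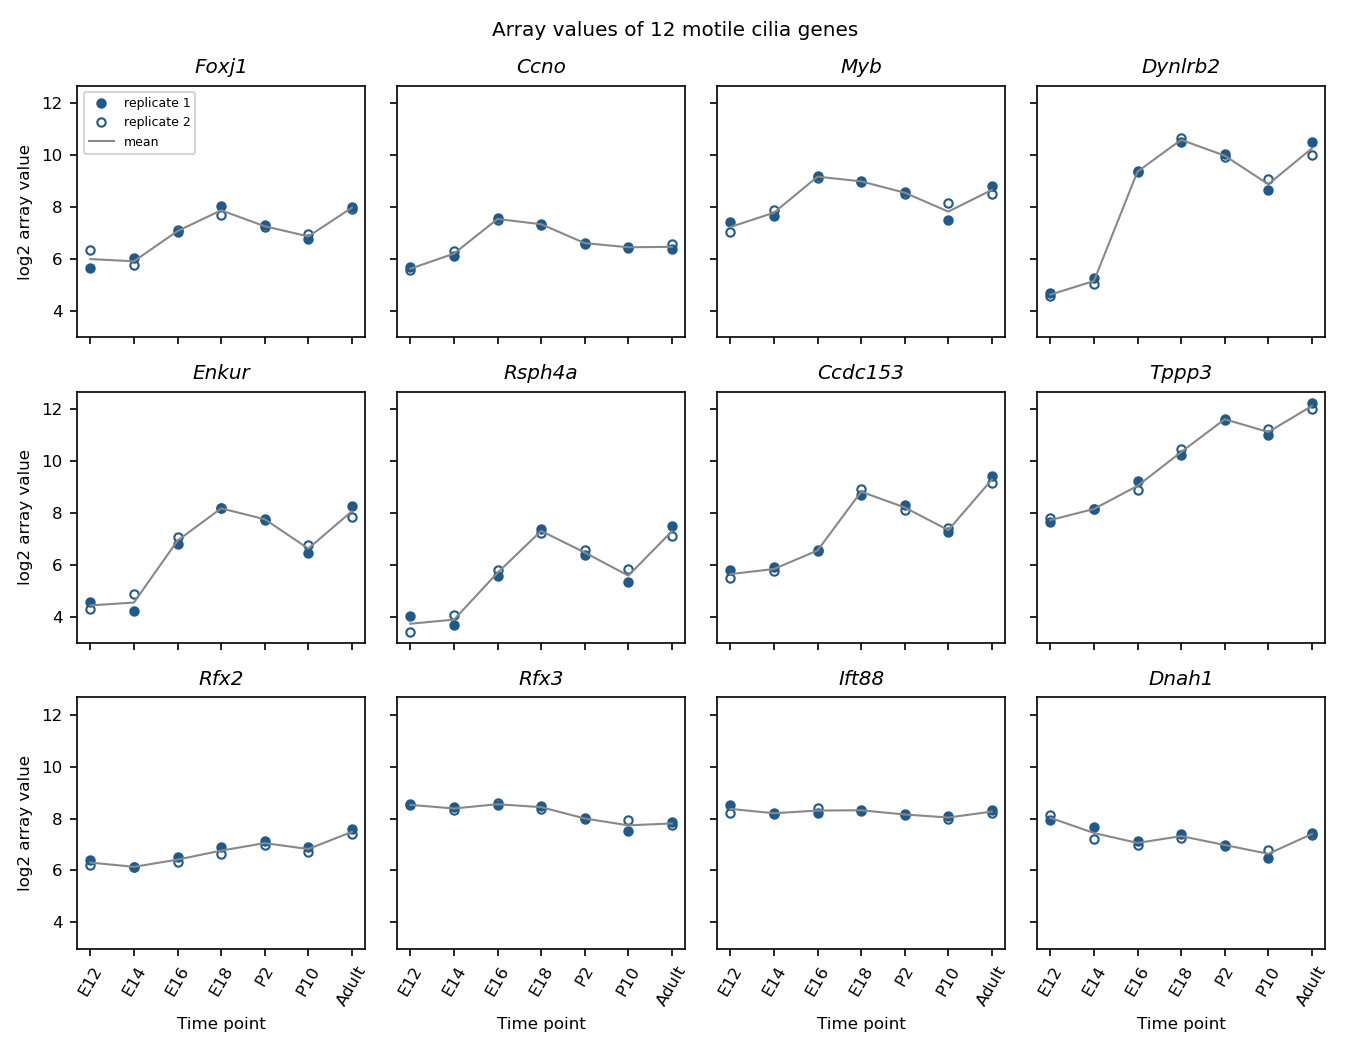
Log2 array value against time point (equally spaced, E12 to Adult) for 12 motile cilia genes, with replicate 1 as filled circles, replicate 2 as open circles and a line through the means. Ccno and Myb are highest at E16, Dynlrb2, Enkur and Rsph4a at E18, Ccdc153, Tppp3 and Rfx2 in the adult, and Rfx3, Ift88 and Dnah1 start high at E12.

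Of the 3 outer arm heavy chains only Dnah9 was called higher at E16 than at E14, a call lost in some of the refits with 1 array left out. Dnah5, the outer arm heavy chain along the whole cilium, had 5.21 and 5.24 at E12, 5.21 and 5.15 at E14, 5.19 and 5.51 at E16, 5.87 and 6.07 at E18, 5.78 and 5.83 at P2, 5.74 and 5.63 at P10, and 6.44 and 6.59 in the adult. Its values were level from E12 to E16, except for 1 E16 array, and the adult arrays were the highest. Dnah9, the outer arm chain of the distal cilium, had 5.55 and 5.65 at E12, 5.42 and 5.29 at E14, 5.71 and 6.06 at E16, 6.63 and 6.76 at E18, 6.54 and 6.61 at P2, 5.93 and 6.19 at P10, and 7.23 and 7.03 in the adult. It too was highest in the adult, by 1.53 (SE 0.13, adjusted p = 1.5e-07) over E12. The second, dimmer probe set of Dnah9 had a Range of only 0.38, with r of 0.922 to the one used. Dnah11, the chain of the proximal outer arm, changed less, with a Range of 0.68 and a difference of 0.43 (SE 0.09, adjusted p = 0.00191) at E18. The median difference of the 3 outer arm genes at E16 against E14 was 0.22 and at E18 against E16 was 0.62.

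The inner arm genes Dnah2 and Dnali1 were both higher from E16 on. Dnali1 had 5.0 and 5.45 at E12, 4.83 and 4.98 at E14, 7.03 and 6.69 at E16, 8.52 and 8.75 at E18, 7.92 and 8.09 at P2, 6.83 and 7.04 at P10, and 8.52 and 8.27 in the adult. Its E16 arrays already lay above all E12 and E14 arrays, and it was higher in the adult than at E12 by 3.17 (SE 0.16, adjusted p = 9.08e-10). Its second probe set had the same course, with r of 0.997. Dnah2 was higher at E16 than at E14 by 1.07 (SE 0.17, adjusted p = 0.000836). The second, dimmer probe set of Dnah2 was flat, with a Range of 0.17 (F test adjusted p = 0.713). Dnah1 went the other way up to E16, with 7.93 and 8.13 at E12, 7.66 and 7.23 at E14, 7.15 and 6.97 at E16, 7.41 and 7.24 at E18, 7.0 and 6.96 at P2, 6.49 and 6.79 at P10, and 7.45 and 7.35 in the adult, and the difference between the adult and E12 was -0.62 (SE 0.14, adjusted p = 0.00184). Its second probe set was flat, with a Range of 0.24.

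Both dynein assembly factors, which fold and load the arms in the cytoplasm, rose. Zmynd10 had 5.61 and 5.32 at E12, 5.06 and 5.66 at E14, 7.22 and 6.89 at E16, 7.67 and 7.48 at E18, 6.73 and 6.67 at P2, 5.92 and 6.20 at P10, and 7.14 and 7.02 in the adult. It was above its E14 level at E16 by 1.69 (SE 0.18, adjusted p = 3.44e-05). At that step the outer arm chains Dnah5, Dnah11 and Dnah9 had differences of 0.17, 0.22 and 0.53. The inner arm genes Dnali1, Dnah2 and Dnah1 had 1.95, 1.07 and -0.38. Dnaaf1 was later, with 4.97 at E14, 5.41 at E16, 6.40 at E18 and 6.67 in the adult as means of 2 arrays. Its difference at E18 over E16 was 0.99 (SE 0.12, adjusted p = 1.77e-05). The second, dimmer probe set of Dnaaf1 had a Range of 0.32 and was not called across the time points (F test adjusted p = 0.317).

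The radial spoke genes all rose at E16 and at E18. Rsph4a, of the spoke head, had 4.04 and 3.42 at E12, 3.70 and 4.07 at E14, 5.57 and 5.81 at E16, 7.37 and 7.23 at E18, 6.39 and 6.55 at P2, 5.34 and 5.82 at P10, and 7.49 and 7.09 in the adult. Each E18 and adult array was above every other array, and the P10 arrays lay around the E16 values. Rsph1, a spoke head protein as well, had 6.36 and 6.08 at E12, 6.07 and 6.02 at E14, 8.07 and 7.94 at E16, 8.86 and 9.12 at E18, 8.18 and 8.11 at P2, 7.40 and 7.30 at P10, and 8.85 and 8.56 in the adult, and was higher in the adult than at E12 by 2.48 (SE 0.13, adjusted p = 8.84e-10). Rsph9, of the spoke head too, moved over a Range of 1.27. Its difference at E18 over E16 was 0.39 (SE 0.13, adjusted p = 0.0321), a call lost in some of the refits with 1 array left out.

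Of the 5 central pair genes only Spef1 had a Max above 7. Spef1, which bundles microtubules, had 7.42 and 7.51 at E12, 7.92 and 7.64 at E14, 8.02 and 7.95 at E16, 9.12 and 8.94 at E18, 8.41 and 8.46 at P2, 8.47 and 8.84 at P10, and 9.16 and 9.24 in the adult. It was the only one of the 38 genes whose P10 mean was above its P2 mean, by 0.22 (SE 0.13, adjusted p = 0.402), which was not called. Hydin, Spag16, Spag17 and Spef2 had adult means of 6.99, 6.60, 4.65 and 6.40, against 5.82, 4.52, 3.64 and 4.69 at E12, and all 4 were called higher in the adult. For Spag17 both E12 arrays had the identical value 3.64 (SD 0), which may be a floor of the processing, so that the size of its rise is uncertain. The other 3 probe sets of Spag16 had Ranges of 0.19 to 0.53, against 2.08 for the one used. The second probe set of Hydin had a Range of 0.35, against 1.42 for the one used. Between the adult and E18 the second probe set of Spag17 had a difference of -0.92 (SE 0.11, adjusted p = 3.03e-05), where the one used had -0.06 (SE 0.13, adjusted p = 0.774).

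Of the regulatory complex and the ruler that sets the spacing of the arms, Drc1 had 5.63 and 5.48 at E12, 5.37 and 5.58 at E14, 6.77 and 6.65 at E16, 7.46 and 7.73 at E18, 7.12 and 7.15 at P2, 6.66 and 6.79 at P10, and 7.93 and 7.72 in the adult. It rose at E16 by 1.23 (SE 0.12, adjusted p = 1.65e-05) and at E18 by 0.88 (SE 0.12, adjusted p = 4.24e-05), and its adult arrays overlapped its E18 arrays. The ruler genes Ccdc39 and Ccdc40, whose proteins act as a pair, did not run in step. Ccdc39 had 6.25 and 6.24 at E14, 7.56 and 7.49 at E16, 8.12 and 8.09 at E18, 7.55 and 7.63 at P2, 6.93 and 7.36 at P10, and 7.63 and 7.44 in the adult. Ccdc40 had 5.92 and 5.92 at E14, 6.66 and 6.42 at E16, 7.56 and 7.81 at E18, 7.12 and 6.97 at P2, 6.36 and 6.50 at P10, and 7.88 and 7.62 in the adult. Between E14 and E16 the difference was 1.28 for Ccdc39 and 0.62 for Ccdc40, and between P10 and the adult 0.40 (adjusted p = 0.0697) and 1.32 (adjusted p = 3.82e-06). The difference between the genes was not tested. Of the 2 other probe sets of Ccdc39, both dimmer, 1 did not follow the one used, with an r of -0.25.

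The tektins, filament proteins inside the doublets, showed 1 exception. Tekt2 and Tekt4 were higher in the adult than at E12 by 1.77 (SE 0.12, adjusted p = 1.16e-08) and 2.06 (SE 0.13, adjusted p = 9.07e-09). Tekt1 had 6.94 and 6.93 at E12, 6.58 and 6.54 at E14, 7.27 and 7.07 at E16, 7.20 and 7.44 at E18, 6.94 and 6.71 at P2, 5.97 and 6.05 at P10, and 7.17 and 6.86 in the adult. Its E12 arrays lay between the adult arrays, with a difference between adult and E12 of 0.08 (SE 0.12, adjusted p = 0.613), and its P10 arrays were the lowest of all. Enkur had 4.58 and 4.28 at E12, 4.22 and 4.87 at E14, 6.81 and 7.05 at E16, 8.17 and 8.18 at E18, 7.77 and 7.73 at P2, 6.47 and 6.78 at P10, and 8.27 and 7.85 in the adult. Its E16 and later arrays did not overlap those of E12 and E14, and it was higher in the adult than at E12 by 3.63 (SE 0.19, adjusted p = 1.55e-09).

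Of the transport genes, Dynlrb2 had the widest course of the 38. It had 4.68 and 4.57 at E12, 5.27 and 5.03 at E14, 9.38 and 9.36 at E16, 10.52 and 10.66 at E18, 10.03 and 9.94 at P2, 8.67 and 9.08 at P10, and 10.50 and 10.02 in the adult. Its E16 arrays were 18.61-fold above the E14 arrays (4.22 (SE 0.16, adjusted p = 7.99e-09)) and its adult arrays 49.71-fold above the E12 arrays (5.64 (SE 0.16, adjusted p = 3.82e-12)). Ift88 had 8.52 and 8.22 at E12, 8.18 and 8.23 at E14, 8.23 and 8.39 at E16, 8.33 and 8.31 at E18, 8.13 and 8.19 at P2, 8.10 and 7.98 at P10, and 8.32 and 8.22 in the adult, with a Range of 0.33.

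Of the remaining genes of ciliated cells, Tppp3 stood apart. Tppp3, which binds tubulin, had 7.64 and 7.80 at E12, 8.14 and 8.15 at E14, 9.22 and 8.86 at E16, 10.22 and 10.46 at E18, 11.62 and 11.59 at P2, 10.99 and 11.23 at P10, and 12.22 and 12.01 in the adult. Its means followed the order of time except at P10, and it was the only gene called higher at P2 than at E18, by 1.27 (SE 0.13, adjusted p = 3.53e-05). In the adult it was above E18 by 1.78 (SE 0.13, adjusted p = 3.31e-07). Ccdc153 had 5.79 and 5.48 at E12, 5.89 and 5.77 at E14, 6.55 and 6.55 at E16, 8.70 and 8.92 at E18, 8.29 and 8.12 at P2, 7.25 and 7.41 at P10, and 9.42 and 9.14 in the adult. Most of its rise lay between E16 and E18, 2.26 (SE 0.13, adjusted p = 1.93e-08), against 0.71 (SE 0.13, adjusted p = 0.00231) between E14 and E16.

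Pifo, the pitchfork gene, had 4.92 and 4.57 at E12, 4.69 and 5.44 at E14, 7.74 and 7.63 at E16, 8.65 and 8.72 at E18, 8.17 and 8.03 at P2, 7.06 and 7.43 at P10, and 8.89 and 8.48 in the adult and thus rose mostly at E16, as Enkur did. Ak7, an adenylate kinase of the axoneme, had means of 6.26 at E14, 7.64 at E16 and 9.03 at E18, with equal steps of 1.38 and 1.38. Spa17, Ccdc113 and Stk33 were higher in the adult than at E12 by 1.48, 2.79 and 2.20, each with an adjusted p of 6.19e-07 or less. Stk33 had 3.81 and 3.75 at E12, 3.85 and 3.71 at E14, 4.29 and 4.32 at E16, 6.04 and 5.89 at E18, 4.62 and 4.92 at P2, 3.94 and 4.18 at P10, and 6.11 and 5.85 in the adult, so that its E16 arrays were still within 1 log2 unit of E12.

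Mlf1, a gene of ciliated cells and also of muscle and blood, had 6.82 and 6.54 at E12, 6.84 and 7.08 at E14, 8.31 and 8.19 at E16, 8.40 and 8.46 at E18, 8.18 and 8.16 at P2, 6.83 and 7.16 at P10, and 8.13 and 7.78 in the adult. It reached its plateau at E16 and the P10 arrays were back at the E14 level. Heart muscle markers stood apart most on the first E16 array. Their mean over 7 genes was 10.58 and 7.68 on the E16 arrays, 5.88 and 6.25 at E14, and 7.75 and 7.98 at E18. Myl2 was raised on both E16 arrays, with 12.63 and 8.84, against 4.65 and 4.92 at E14 and 4.83 and 4.84 at E18. Mlf1 was at 8.31 and 8.19 on the same E16 arrays, and its E16 rise was 1.29 (SE 0.14, adjusted p = 5.28e-05). The part of heart tissue in it was not tested.

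Over the whole course, 34 of the 38 genes were higher in the adult than at E12 (35% of all genes) and 2, Dnah1 and Rfx3, were lower (30.2%), with a median difference of 1.71 against 0.08 over all genes. The same counts came out whichever array was left out. Tekt1 and Ift88 were the other two. The largest differences were those of Dynlrb2 (5.64), Tppp3 (4.40), Pifo (3.94), Ccdc153 (3.64), Enkur (3.63) and Rsph4a (3.56).

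Between the adult and E18 the balance was close. Of the 38 genes, 6 were higher in the adult (19.2% of all genes) and 7 lower (20%), with a median difference of -0.06 against 0.02 over all genes. The higher ones were Tppp3 with 1.78, Rfx2 with 0.72, Spag16 with 0.64, Dnah5 with 0.55, Ccdc153 with 0.47 and Dnah9 with 0.43. The lower ones were Ccno with -0.87, Rfx3 with -0.63, Ccdc39 with -0.57, Zmynd10 with -0.49, Mlf1 with -0.48, and Tekt2 and Tekt4 with -0.36 each. The count of lower genes was 2 without the second adult array and 3 without the second E18 array. Calls that stayed in every refit were Tppp3, Rfx2, Spag16 and Dnah5 among the higher genes and Ccno and Rfx3 among the lower.

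**Figure D4:**
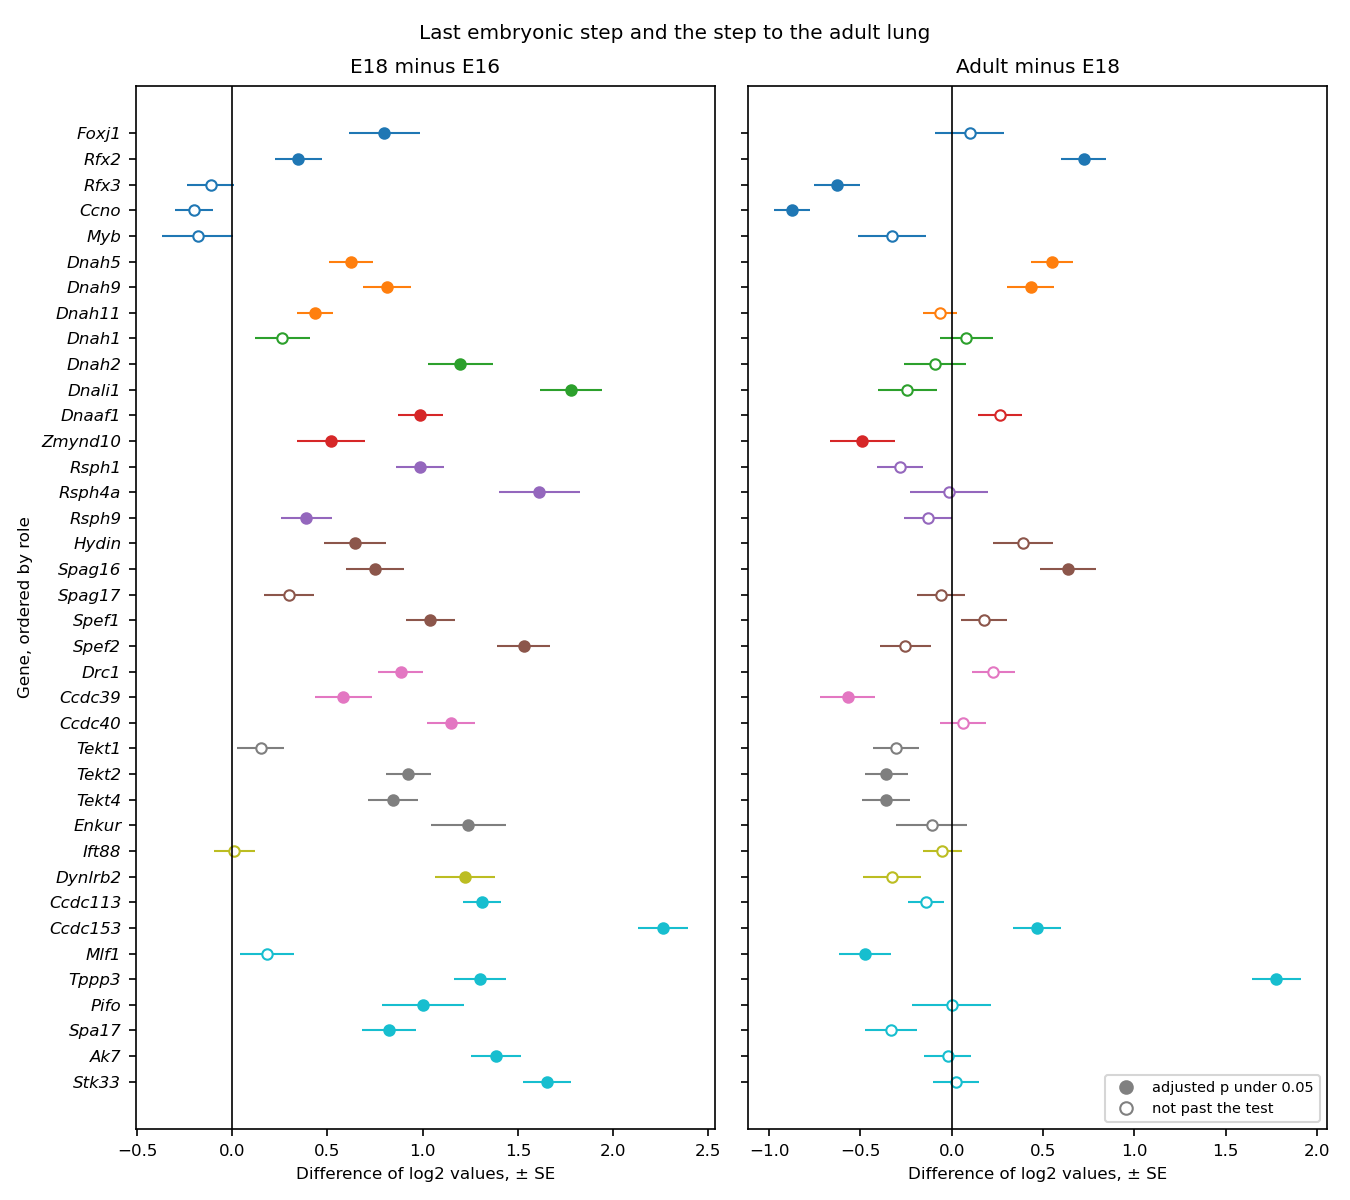
Difference of log2 values with its SE for the 38 motile cilia genes in order of role (colour), E18 minus E16 on the left and Adult minus E18 on the right; filled circles have an adjusted p under 0.05. On the left most genes lie right of 0 while Rfx3, Ccno and Myb lie at or just left of it, and on the right the genes scatter on both sides of 0 with Tppp3 at 1.78.

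Of 66 other genes of the motile axoneme and its assembly, 35 were higher (53% of the list, against 9.95% of all genes) and 2 lower (3.03%, against 10.6%) at E16 than at E14. At E18 against E16, 45 were higher (68.2%, against 24.8%) and 5 lower (7.58%, against 21.6%). At P2 against E18, 0 were higher (8.58% of all genes) and 29 lower (43.9%, against 10%). At P10 against P2, 0 were higher (4.82% of all genes) and 26 lower (39.4%, against 4.37%), and in the adult against P10, 41 were higher (62.1%, against 16.8%) and 0 lower (14.9% of all genes). In the adult against E12, 46 were higher (69.7%, against 35%) and 7 lower (10.6%, against 30.2%), with a median difference of 1.04. The largest rises were those of Fam183b (3.65), Cfap161 (3.48), Ttc29 (3.32) and Lrrc23 (3.02). Fam183b had 4.81 and 5.30 at E12, 4.92 and 5.19 at E14, 7.05 and 6.94 at E16, 8.56 and 8.74 at E18, 8.19 and 8.01 at P2, 6.84 and 7.13 at P10, and 8.94 and 8.46 in the adult, low at E12 and E14 and highest at E18 and in the adult. The falls were led by Dnaaf2 (-1.95), a dynein assembly factor, Nme7 (-1.68), Cfap300 (-1.20), Mns1 (-0.67), Gas8 (-0.49) and Cby1 (-0.44). Dnaaf2 had 9.03 and 9.21 at E12, 9.06 and 9.15 at E14, 8.75 and 8.73 at E16, 7.15 and 7.36 at E18, 7.43 and 7.47 at P2, 7.21 and 7.17 at P10, and 7.12 and 7.22 in the adult, high until E16 and low from E18 on.

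Of 20 other genes of multiciliation and centriole making, 5 were higher (25%) and 7 lower (35%) in the adult than at E12, shares near those of all genes (35% and 30.2%), and 3 were higher without the first E12 array or without the first adult array. Deup1, a scaffold for the many centrioles of multiciliated cells, had 5.27 and 5.53 at E12, 5.22 and 6.12 at E14, 8.73 and 8.69 at E16, 7.52 and 8.0 at E18, 7.0 and 6.98 at P2, 6.29 and 6.70 at P10, and 6.91 and 6.76 in the adult. Like Ccno and Myb it was highest at E16, after a difference of 3.04 (SE 0.23, adjusted p = 2.65e-06) over E14, and its difference at E18 against E16 was -0.95 (SE 0.23, adjusted p = 0.00511). The 4 largest rises were those of Deup1 (1.44), Fank1 (0.76), Trp73 (0.71) and Foxa2 (0.31). Of the falls, Stil (-3.94), Plk4 (-3.82), Gmnn (-2.49), Sass6 (-2.12), Cep152 (-1.51) and Cenpj (-1.17) are also genes of dividing cells. The mean of 5 proliferation markers was 11.28 and 11.39 on the E16 arrays, 8.59 and 8.75 at E18 and 6.85 and 6.66 in the adult, and their part in these falls was not tested.

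Of 28 other genes of intraflagellar transport, which builds motile and primary cilia alike, 4 were higher (14.3%, against 35% of all genes) and 16 lower (57.1%, against 30.2%) in the adult than at E12, with a median difference of -0.45. The higher ones were Ttc30b (0.93), Wdr19 (0.60), Traf3ip1 (0.51) and Ift43 (0.35). The largest falls were Ttc30a1 (-1.73), Ift74 (-1.61), Ttc26 (-1.41), Ttc21b (-1.22), Kif3a (-1.07), a motor subunit, and Ift27 (-0.72). Ift88 itself, of the same machinery, had a difference of -0.10. At E16 against E14, 3 of the 28 were higher (10.7%) and 2 lower (7.14%), near the 9.95% and 10.6% of all genes.

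Markers of epithelium and of other airway cells moved beside the motile cilia genes at several steps. Pan-epithelial markers (mean of 6 genes) were at 9.46 and 9.41 at E12, 9.87 and 10.03 at E14, 10.65 and 10.70 at E16, 11.05 and 10.97 at E18, 10.18 and 10.16 at P2, 9.70 and 9.68 at P10, and 10.36 and 10.18 in the adult. After birth they were lowest at P10, as the motile cilia genes were. Of the 6, 4 were called higher at E16 than at E14, 4 higher and 1 lower at E18 than at E16, 5 lower at P2 than at E18, 3 lower at P10 than at P2, 4 higher in the adult than at P10 and 5 lower in the adult than at E18. Club cell markers (mean of 6 genes) were at 7.66 and 7.13 at E12, 7.05 and 7.46 at E14, 9.91 and 9.32 at E16, 11.63 and 11.62 at E18, 12.27 and 12.17 at P2, 11.51 and 11.51 at P10, and 13.32 and 13.12 in the adult. Their rises at E16 (median 1.83, 6 of 6 called higher) and E18 (median 2.26, 5 of 6 called higher and 1, Aldh1a7, lower) lay beside those of the motile cilia genes. At P10 against P2, 2 of the 6 were lower. Scgb1a1 was uneven between early arrays, with 9.59 and 8.10 at E12, 4.21 and 4.19 at E14, and 11.77 and 8.90 at E16. At P2 against E18 the club cell markers went the other way, with a median of 0.54 and 3 of 6 called higher and 1 lower, where the motile cilia genes had a median of -0.48.

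Mesothelium markers (mean of 5 genes, 1 of them, Krt19, also among the pan-epithelial ones) were at 7.51 and 7.56 at E12, 7.30 and 7.48 at E14, 7.91 and 7.80 at E16, 9.22 and 9.31 at E18, 8.94 and 8.95 at P2, 8.32 and 8.04 at P10, and 8.91 and 8.87 in the adult. Their mean too was highest at E18, lower at P10 and higher again in the adult. By the median over the 5 genes there was no fall at P2 against E18 (0.03). The median differences were -0.63 at P10 against P2 and 0.61 in the adult against P10. Alveolar type II markers (mean of 5 genes) were at 10.55 and 10.20 at E16, 13.15 and 13.15 at E18, 13.20 and 13.20 at P2, 13.06 and 12.88 at P10, and 13.56 and 13.55 in the adult. Airway cartilage markers (mean of 6 genes) were at 5.94 and 5.80 at P2, 5.42 and 5.30 at P10, and 5.63 and 5.49 in the adult, with 2 of the 6 lower at P10 than at P2. Basal cell markers (mean of 5 genes) lay between 5.47 and 6.04 on all arrays, but single members moved. Krt15, a keratin of basal cells, had differences of 1.03 (SE 0.17, adjusted p = 0.00028) at E18 against E16 and -1.85 (SE 0.17, adjusted p = 1.19e-05) at P2 against E18, and Ngfr had one of -1.21 (SE 0.14, adjusted p = 8.25e-05) at E16 against E14. The defining basal genes Trp63 and Krt5 were not called across the 7 time points (F test adjusted p = 0.889 and 0.584), though the Trp63 probe set was dim, with a highest mean of 5.07. Krt14, another basal keratin gene, was called (F test adjusted p = 0.022) over a Range of 0.37. It had differences of 0.34 (SE 0.09, adjusted p = 0.0206) at P2 against E18 and -0.37 (SE 0.09, adjusted p = 0.0242) at P10 against P2. The share of airway in the pools was not measured, and the part of these cell types in the motile cilia values was not tested.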

How the data were processed

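Total RNA of whole lungs at 7 time points had been hybridised to 14 one-colour Affymetrix mouse genome arrays. The authors deposited log2 values of 45101 probe sets. In their methods the normalization, run in Partek 6.4, is Robust Multichip Average, and in the deposited processing notes it is GCRMA. It is not known which was used, and the choice of background correction bears on how far dim probe sets are spread. No scanner files were used here, and the number of arrays limits the precision.

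The 64 control probe sets were left out. Of the other 45037, 34945 carried 1 gene symbol, 932 several and 9160 none. Symbols came from the platform annotation; RefSeq tables of GRCm38.p6 served for names and promoters. In R 4.3.3, limma 3.58.1 fitted a mean per time point over all arrays (residual df 7, prior df 6.04), with Benjamini-Hochberg adjustment over all probe sets, and was tested on simulated data. Shares of all genes were counted over 18193 genes. Every one of the 39 genes may be named; of the other cilia lists, the 4 largest called rises and up to 6 largest called falls of the adult against E12; and the 10 genes most alike in profile. The 39 genes, the lists and the thresholds were chosen with earlier results of these data known. Other normalizations, probe set choices, tests and arrays left out were tried.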

Additional observations from a re-analysis of the deposited data

How the results depend on the processing

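Of 304 differences (38 genes in 8 comparisons), 191 were called. Left-out arrays took the call from 4 to 26 of the 191, the plain ANOVA from 34, the mean of a gene's probe sets from 11, quantile normalization and median centring from 7 each and the intensity trend from 2. The widest probe set in place of the brightest took none, but it is picked for its spread over these same time points, so that calls were likely to stay. Of the 191, 148 lay on probe sets with a highest mean above 7, all of which kept their call when only such probe sets were fitted. That limit is taken from the same values and leaves fewer probe sets in the adjustment, so that these calls too were likely to stay. Only the call of Rfx2 at E18 over E16 turned, to -0.028 with the mean of its probe sets.

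The count lower at E14 than at E12, 1, was 0 with quantile normalization, the mean of probe sets, the plain ANOVA and the replicate block, and the count higher was 2 with the widest probe set. With the plain ANOVA, 12 were lower at P2 than at E18, 12 lower at P10 than at P2 and 3 lower in the adult than at E18; quantile normalization gave 4 for the last. The mean of probe sets gave 2 higher at P2 than at E18. With only probe sets whose highest mean was above 7, 8 were highest in the adult and 28 other axoneme genes were higher in the adult than at E12. Quantile normalization gave 7 intraflagellar transport genes higher in the adult.

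With 1 array left out, the counts ran from 24 to 27 for genes past all 3 criteria, 0 to 1 higher and 0 to 1 lower at E14, 24 to 30 higher and 0 to 1 lower at E16, 26 to 31 higher at E18, 8 to 22 lower at P2, 13 to 25 lower at P10, 31 to 35 higher in the adult than at P10, and 4 to 7 higher and 2 to 9 lower in the adult than at E18. Genes highest at E18 numbered 14 to 22 and in the adult 11 to 19. Of the other lists, 41 to 47 axoneme genes, 3 to 7 centriole genes and 3 to 5 transport genes were higher in the adult than at E12. The cause of these shifts was not tested beyond the smaller number of arrays.

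Over all probe sets, arrays with the same replicate number did not deviate together: r lay between -0.18 and 0.0768 over 21 pairs of time points, with 0 above 0.1. A pairing that moves few genes or few time points would not show there, so whether the numbers pair arrays is not known. A replicate block took the call from 7 of the 191. A group of 2 arrays allows no test for an outlying array.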

Other observations

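The 10 genes outside all cilia and marker lists whose values ran most like the mean standardised course of the 29 motile cilia genes with a highest time-point mean above 7 were 1700016K19Rik (Pearson r = 0.9923 over the 14 arrays), 1700094D03Rik (0.9899), 1110032A03Rik (0.9885), Pih1d2 (0.9883), Itpka (0.9826), Atp13a3 (0.9793), 1700088E04Rik (0.9786), Mdh1b (0.9777), Ppp1r36 (0.9749) and Per2 (0.9738). They were picked for this likeness, the 14 arrays share their time points, and no test goes with the values. Pih1d2 had means of 4.96 at E14, 5.83 at E16, 6.37 at E18, 5.51 at P10 and 6.30 in the adult. Per2, a gene of the circadian clock, had 6.84, 7.88, 8.99, 7.70 and 8.62 at the same times. The hour at which lungs were taken was not given in the sources used here.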
